A study of Mus musculus with 4 samples.

Results

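The effect of removing 1 kidney on gene expression in the kidney that stays was examined in nondiabetic mice. It was taken as the difference between the array of nondiabetic uninephrectomised mice and the array of nondiabetic sham-operated mice, chosen by their titles, which are 2 of the 4 arrays of the series. All annotated genes were compared: 18193 genes were named on the array, and 11206 of them had a probe set above the signal filter. Each of these arrays held RNA pooled from 4 female FVB/NJ mice, nondiabetic littermates (genotype control) of diabetic OVE26 transgenic mice. Surgery was done at 2 months of age, and kidneys were taken at 4.5 months, 10 weeks later, after perfusion with buffered saline. A part of each kidney was frozen for RNA. The other 2 arrays held, each again as a pool of 4, OVE26 mice, which become diabetic because their beta cells overexpress calmodulin, on the same FVB background and of the same sex and age, after a sham operation or uninephrectomy. They share no array with the nondiabetic pair and differ from it by diabetes, so their values are given beside the nondiabetic ones and are not a replicate.

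After loss of a kidney, the remaining one enlarges and filters more. Tubule cells grow mainly by becoming larger, with a burst of cell division early after surgery, and each tubule then reabsorbs and secretes a larger load.

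Signals are those deposited for the array, and differences are log2(signal + 26.4) of uninephrectomised minus sham mice, where 26.4 is the 20th percentile of all signals. The offset keeps dim probe sets from giving large differences, and it understates the difference of dim genes. Genes are called expressed from a 4-array mean of 7.06 on this log2 scale, the median of all probe sets, equal to a signal of 106.7. Each gene is represented by its brightest probe set. With 1 array per group there is no replicate check of any difference and no p-value. The only repeated measurement is of genes with several probe sets, which share the pool, the labelling and the array, and so check the probes and not the animals. In whole kidney RNA, fewer cells of a type and less RNA per cell cannot be told apart.

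The tissue matched its label: uromodulin (Umod, thick ascending limb) had signals of 42867 in sham and 48279 in uninephrectomised mice, the phosphate transporter gene Slc34a1 (proximal tubule) 13935 and 16823, and nephrin (Nphs1, podocyte) 381.5 and 420.5. The median array signal was 107 in sham and 119 in uninephrectomised mice, and the 20th percentile 23.7 and 30.1. All 18 hybridisation spike-in probe sets were higher on the uninephrectomy array, by 0.15 to 0.45 (median 0.30), while in the diabetic pair their median difference was -0.41. The 3'/5' signal ratio of beta-actin, which grows as RNA or labelled product shortens, was 2.78 and 3.49. The part of these array differences in the results was not tested.

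Most genes differed little between the 2 nondiabetic arrays. The median difference over 11206 genes was 0.003 with an SD of 0.32, and the signals correlated across genes at a Pearson r of 0.983 (genes are not independent replicates). After uninephrectomy 76 genes (0.678%) stood at least 2-fold above sham and 58 (0.518%) at least 2-fold below. At 1.5-fold the counts were 431 higher (3.85%) and 316 lower (2.82%). Of the 76 and 58 genes, 65 and 47 rested on a single expressed probe set, and 43 and 29 had a signal under 106.7 on one of the arrays. The balance of directions depended on scaling: quantile normalisation gave 63 higher and 72 lower, and median centring, which shifted the median of all genes by -0.13, gave 44 and 89. In the text, differences are relative to the deposited scaling.

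Probe sets of a gene agreed weakly. Among 4924 genes with 2 or more expressed probe sets (13082 probe sets), the pooled SD of the differences within a gene was 0.302. The differences of the brightest probe sets had an SD of 0.259 across these genes. The second brightest probe set had the sign of the brightest in 2787 genes (56.6%), with a Pearson r of 0.172 across genes (Spearman correlation 0.16), and all probe sets had one sign in 2188 genes (44.4%). The agreement was closer where the second probe set was brighter: across 4 equal bins of rising signal the Pearson r was 0.098, 0.129, 0.24 and 0.382, and the pooled SD 0.37, 0.325, 0.295 and 0.243. In the diabetic pair the same r over all genes was 0.392, at a pooled SD of 0.292. A large difference in the brightest probe set was often not repeated: of 11 genes at least 2-fold higher with another expressed probe set, 6 had a second brightest probe set of the same sign, and of 11 at least 2-fold lower, 8. The scatter of the brightest against the second brightest probe set shows a cloud without a clear axis and a few genes at its corners.

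**Figure D1:**
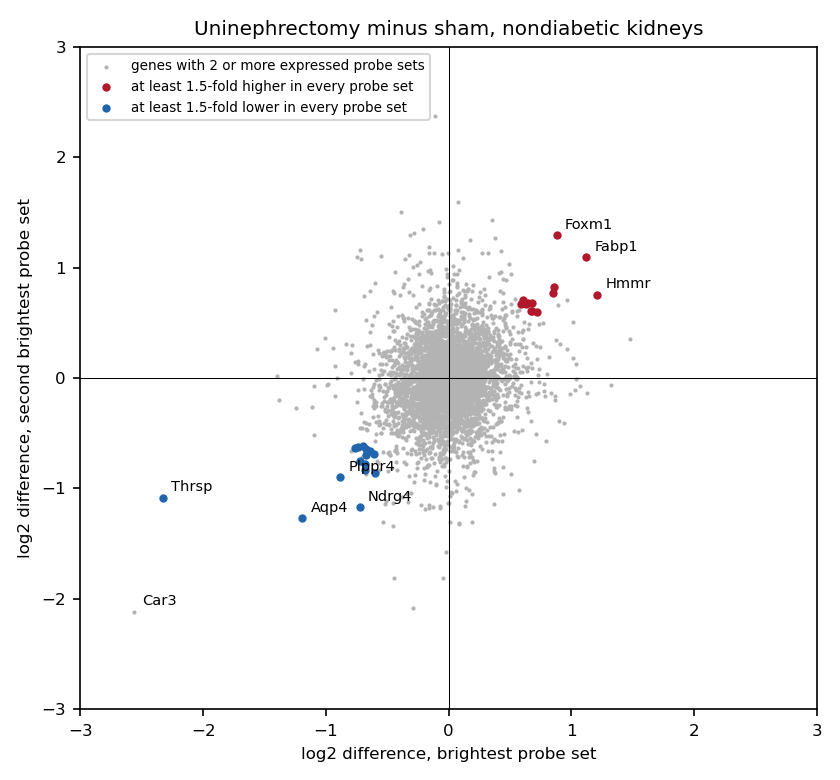
Log2 difference (uninephrectomy minus sham, nondiabetic kidneys) of the brightest probe set (x axis) against the second brightest (y axis) for 4924 genes, 1 point per gene. Coloured points are the genes at least 1.5-fold higher (13, red) or lower (15, blue) in every expressed probe set; Car3 is labelled in grey because another of its probe sets differed by only 0.12.

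Genes that differed by at least 1.5-fold in the same direction in every one of 2 or more expressed probe sets were few: 13 were higher (0.264% of 4924) and 15 lower (0.305%). Among them, Hmmr, Pde5a and Tnfrsf12a rest on a dimmer probe set that passed the filter only with the diabetic signals. With median centring the counts were 5 and 37. The same rule in the diabetic pair gave 56 higher (1.14%) and 24 lower (0.487%). By their brightest probe set, 9 of the 13 genes were also above 0 in diabetic mice, where their median was 0.48 against 0.68 in nondiabetic mice. Of the 15 lower genes, 8 were below 0 in diabetic mice, where their median was -0.04 against -0.70. The probe set just outside the threshold belonged to Gda, a guanine deaminase gene (0.57 and 0.62), on the higher side and to Mcm3, a DNA replication helicase gene (-0.58 and -0.75), on the lower side. The brighter probe set of Mcm3, at -0.58, passed the filter only with its diabetic signals.

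Among the genes higher in every probe set, the lipid carrier Fabp1 was first when genes were ranked by their smallest probe set difference. Fabp1 encodes the liver fatty acid binding protein and is a target of the lipid sensor PPARA. Its 2 probe sets had signals of 166 and 195 on the sham array, against 392.5 and 445 after uninephrectomy, differences of 1.12 and 1.09. In diabetic mice they went from 311 to 384 and from 242 to 210.0, so the diabetic pair did not repeat the difference in both probe sets. Ugt2b34, which conjugates compounds to glucuronic acid for excretion, was higher by 0.65 and 0.68 (signals of 1028 and 1628, and of 544 and 888.5). It was one of the genes also higher in diabetic mice, by 0.81 and 0.49. Psat1, an enzyme of serine synthesis, was higher by 0.63 and 0.67, with signals of 773 and 1209 for the brightest probe set. Slc16a14, of the monocarboxylate transporter family, had signals of 1725.5 and 2775.5 and of 799 and 1292, each a difference of 0.68, and was lower in the diabetic pair (-0.29 and -0.85).

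The remaining genes higher in every probe set include regulators of cell division and immune genes. Foxm1, a transcription factor of genes expressed at mitosis, had signals of 425 and 805 (0.88) and of 90 and 259 (1.29), and in diabetic mice it was higher by 0.48 and 0.57. Hmmr, a hyaluronan receptor that also binds the mitotic spindle, was higher by 1.21 and 0.76, from signals of 90.1 and 57.6 in sham mice, both under the filter signal. Its dimmer probe set passed the filter only with the diabetic signals. Igha, the constant region of immunoglobulin A heavy chains, was higher in 3 of 3 probe sets (0.86, 0.82 and 0.73). Its signals were 2352, 1855 and 1703 in sham and 4288, 3302 and 2836 in uninephrectomised mice, higher by a like factor in each probe set. In diabetic mice Igha was higher by 1.91, 1.87 and 1.57, and Jchain, which joins immunoglobulin A into dimers, went from 874 to 1591 in nondiabetic (0.85) and from 486 to 2700 in diabetic mice. Of 19 measured lymphocyte and immunoglobulin genes 4 were expressed, these 2 with Ighm (0.16) and Ptprc (0.08). The T and B cell markers Cd3e, Cd4, Cd79a and Ms4a1 lay at signals of 83.8 or less on both arrays. Cd8a, Cd3g and Klrd1, also under the filter, went from 37.4, 90.3 and 82.0 to 154, 117 and 116 after uninephrectomy. Among all list members under the filter, only Cd79a, Ccr7 and Gzma were lower after uninephrectomy (-0.15, -0.25 and -0.93).

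The other 6 were dimmer or nearer to the threshold. Chpf2, which builds chondroitin sulfate chains, was higher by 0.85 and 0.77, Pkdcc, a secreted tyrosine kinase gene, by 0.72 and 0.60, Rnd3, a regulator of the actin skeleton, by 0.59 and 0.67, and Cxcl13, a chemokine that attracts B cells, by 0.61 and 0.71. Pde5a, the cyclic GMP phosphodiesterase, was higher by 0.67 and 0.61 at signals of 65.4 to 169, and its dimmer probe set passed the filter only with the diabetic signals. Klk1b5, higher by 0.68 and 0.61, belongs to the kallikrein family, whose members are so alike that its probe sets may also bind other members. Of these 6, Pkdcc and Rnd3 were higher in both probe sets in diabetic mice (0.79 and 0.07, and 0.74 and 0.88).

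**Figure D2:**
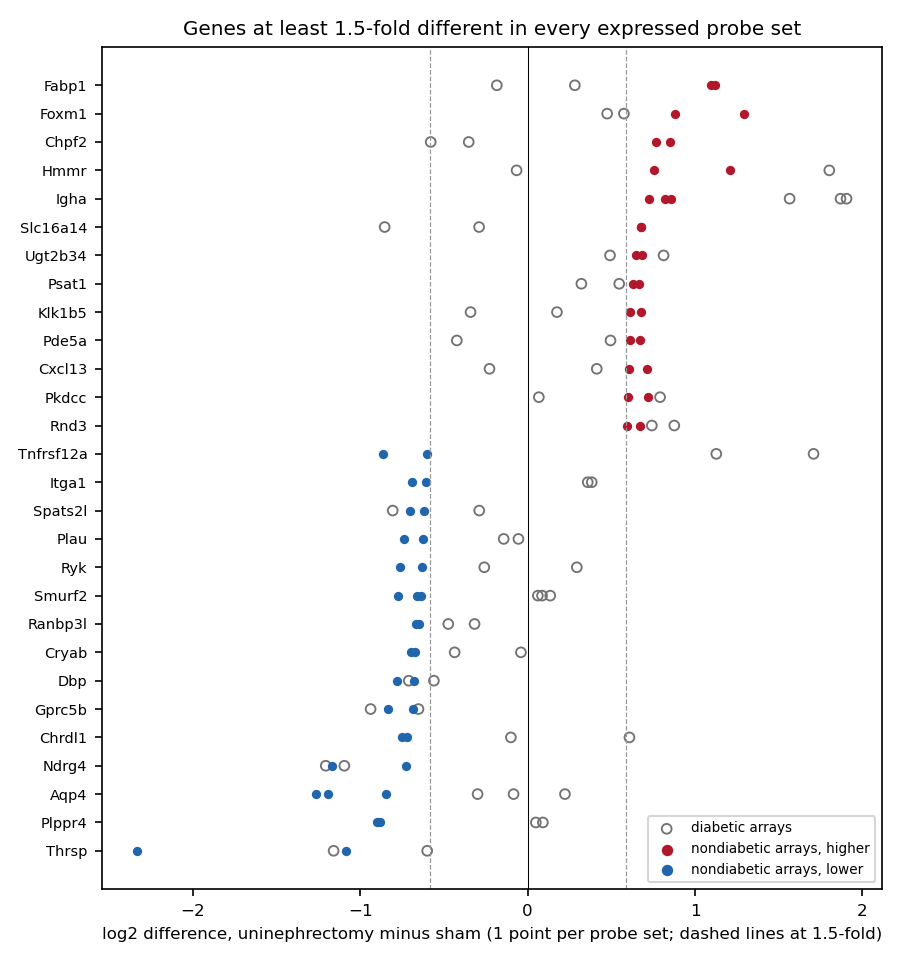
Log2 difference, uninephrectomy minus sham, of each expressed probe set (points) of the 28 genes at least 1.5-fold higher or lower in every probe set. Filled points are nondiabetic and open circles diabetic kidneys, and dashed lines mark 1.5-fold; Aqp4, Plppr4, Smurf2 and Tnfrsf12a lie apart from their diabetic values, while Ndrg4, Gprc5b and Dbp lie near them.

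The genes lower in every probe set included a water channel and a stress protein of the medulla. Aqp4, the basolateral water channel of collecting duct principal cells, had signals of 5296, 1107 and 303 on the sham array, against 2305, 444 and 157 after uninephrectomy, differences of -1.19, -1.27 and -0.85. In diabetic mice the brightest probe set went from 2221 to 2596 and the other 2 were at -0.30 and -0.08, and in all 3 probe sets the nondiabetic sham array stood above the other 3 arrays. Cryab, a small heat shock protein gene abundant in the inner medulla, went from 6727 to 4202 and from 2170.0 to 1326 (-0.67 and -0.70), against -0.04 and -0.44 in diabetic mice. Ranbp3l, a Ran-binding protein gene, was lower by 0.67 and 0.65, with signals of 3899 and 2443 for the brighter probe set.

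Several of the lower genes act in signalling at the cell surface or in the matrix. Plau, the protease urokinase, went from 7179 to 4296 and from 1712 to 1102 (-0.74 and -0.62), and in the diabetic pair from 5267 to 5068. Smurf2, a ubiquitin ligase that removes TGF-beta receptors, was lower in 3 of 3 probe sets (-0.64, -0.66 and -0.78), with signals of 2216 and 1413 for the brightest, and 0.06 to 0.13 in diabetic mice. Itga1, a collagen-binding integrin chain, was lower by 0.60 and 0.69, Ryk, a Wnt receptor, by 0.76 and 0.63, Chrdl1, an antagonist of bone morphogenetic proteins, by 0.72 and 0.75, and the orphan receptor gene Gprc5b by 0.68 and 0.83. Of these 4, only Gprc5b was lower in both probe sets in diabetic mice (-0.94 and -0.65). Tnfrsf12a, the receptor of the cytokine TWEAK, went from 213 to 131.5 and from 133 to 61.3 (-0.60 and -0.86), but from 375 to 1286 and from 578 to 1294 in diabetic mice. Its dimmer probe set passed the filter only through these diabetic signals.

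The other genes lower in every probe set were Thrsp, Dbp, Ndrg4, Plppr4 and Spats2l. Thrsp, a regulator of fatty acid synthesis in fat and liver, went from 829 to 144 (-2.33) and from 267 to 112 (-1.08), and in diabetic mice it was lower by 1.16 and 0.60. Ndrg4 was lower by 0.72 and 1.17 and, in diabetic mice, by 1.21 and 1.10. Plppr4, a relative of lipid phosphatases, had signals of 551 and 287 and of 230.5 and 111 (-0.88 and -0.90), with values of 0.05 and 0.09 in diabetic mice. Thrsp and Ndrg4 were thus lower in both pairs and Plppr4 in the nondiabetic pair alone, a contrast for which the difference was not tested. Spats2l was lower by 0.70 and 0.62.

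The largest differences in single probe sets carry no check of this kind, apart from Thrsp and Car3. The 10 highest were Lce1h (2.54), Plxnb3 (2.47), Npy (2.21), Fbxo42 (2.14), Rps27 (1.95), Abcg4 (1.88), Lce3b (1.87), Cyp24a1 (1.84), Nwd1 (1.72) and Trim16 (1.64). Only Cyp24a1 had a signal well over the filter on both arrays (1047 and 3819.5); the sham signals of the other 9 lay between 28.9 and 112.5, as for the skin barrier gene Lce1h (47.9 and 405) and the neuropeptide gene Npy (28.9 and 229). The 10 lowest were Adipoq (-3.19), Hdc (-2.80), Car3 (-2.56), Thrsp (-2.33), Vars2 (-1.87), Wipf3 (-1.85), Sec24b (-1.72), Krtap12-1 (-1.72), Itpkc (-1.60) and Ptpn23 (-1.60). Of these highest and lowest genes, Npy, Abcg4, Trim16, Vars2 and Ptpn23 passed the filter only with their diabetic signals. Hdc, the enzyme that makes histamine, went from 946.5 to 113.0 in nondiabetic mice and from 698 to 496 in diabetic mice. Krtap12-1, a hair keratin-associated gene, had nearly the same signals in both pairs (235.5 and 53.3, and 229 and 52.6).

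Among 39 gene lists, the median differences ran from -0.55 to 0.50, and 19 of them changed sign under some alternative processing, so small medians have no direction here. The lists of fatty acid oxidation, calcium, osmolyte, inner medulla, fat, oxidative phosphorylation, antioxidant, cytochrome P450, proximal tubule and matrix genes kept the sign of their median under all alternatives that were run. The plot of list members shows how far single members spread around each median.

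**Figure D3:**
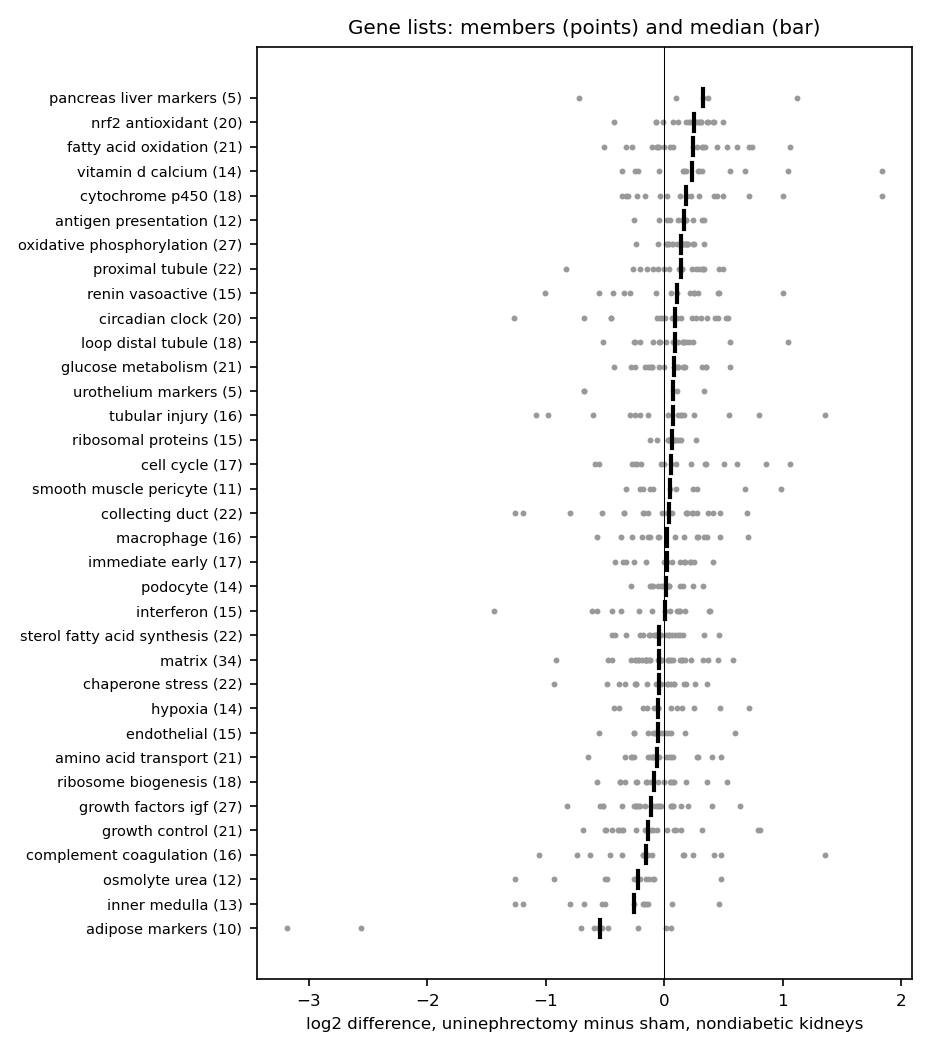
Log2 difference, uninephrectomy minus sham in nondiabetic kidneys, of the expressed members (points) of each gene list with 5 or more such members (number in brackets), with the list median as a bar. The adipose and inner medulla lists have the lowest medians (-0.55 and -0.25), and antioxidant and fatty acid oxidation genes lie among the highest (0.25 and 0.24).

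The fatty acid oxidation list held members that were higher and core enzymes that differed by less than 1.5-fold in their brightest probe set. Many of its genes are targets of PPARA, the nuclear receptor that turns on lipid burning in fasting. Of 21 expressed genes on the fatty acid oxidation list 4 were at least 1.5-fold higher and 0 lower, against 3.85% and 2.82% of all genes. The median was 0.24 and, in the diabetic pair, -0.26. The spike-in medians of these pairs were 0.30 and -0.41, and the part of array scale in the list medians was not tested. Angptl4, a secreted inhibitor of lipoprotein lipase, went from 389 to 839 (1.06), Pdk4, which shuts pyruvate out of the citric acid cycle, from 716 to 1212 (0.74), and Cyp4a14, a fatty acid omega-hydroxylase, from 10758 to 17699 (0.72). In diabetic mice these 3 genes had sham signals of 1858, 2495.5 and 20771, above both nondiabetic arrays. Vnn1, a pantetheinase gene, was higher in both probe sets (0.61 and 0.51), as was Slc25a20, the mitochondrial carnitine carrier (0.53 and 0.47). Core enzymes of the pathway differed less in their brightest probe set. Acadm was at -0.10, Acadl at -0.06, Hadha at -0.28, Hadhb at -0.065 and Cpt1a at -0.00. Acadvl was at 0.047, Acaa1a at 0.075, Acaa2 at 0.243, Cpt2 at 0.28, Decr1 at 0.32 and Ehhadh at 0.34. Other probe sets stood higher, up to 0.588 in Cpt2, 0.49 in Cpt1a, 0.468 in Hadhb and 0.458 in Acaa2. The fatty acid carrier Fabp3 was at -0.32. Cd36, a fatty acid transporter also abundant in fat and endothelium, was lower in 3 of 3 probe sets (-0.51 to -0.35).

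Calcium-handling genes of the distal tubule and targets of the vitamin D receptor held some of the larger differences at high signal. Active vitamin D induces its own breakdown enzyme, Cyp24a1, together with the calcium-binding proteins that carry calcium through distal tubule cells. Cyp24a1 went from 1047 to 3819.5 in nondiabetic mice (1.84, 1 probe set) and from 2581.5 to 2004.5 in diabetic mice. Calb1, the calcium buffer calbindin-D28k, was higher in 4 of 4 probe sets (0.56 to 0.77), with signals of 16021 and 23604 for the brightest. S100g, calbindin-D9k, went from 16389 to 26245 (0.68), and Slc8a1, the sodium-calcium exchanger, from 2041 to 4228 (1.04), with a second probe set at only 0.13. In diabetic mice, Calb1, S100g and Slc8a1 were at -0.03, -0.18 and 0.11. Sham mice of the nondiabetic pair had the lowest signal of the 4 arrays for Cyp24a1, S100g and the brightest probe set of Calb1.

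A list of 17 measured genes of vitamin D and calcium transport was written after these values were seen, so its counts describe and support nothing. Of its 14 expressed members 3 were at least 1.5-fold higher and 0 lower, against 3.85% and 2.82% of all genes. The median was 0.24, and -0.18 in diabetic mice. The vitamin D receptor gene Vdr was higher in both probe sets (0.32 and 0.45), and Klk1, tissue kallikrein of the connecting tubule, in 4 of 4 (0.26 to 0.78). Cyp27b1, which makes active vitamin D, had signals of 185 and 138.5 (-0.36), whereas it went from 385.5 to 818 in diabetic mice. The calcium-sensing receptor gene Casr was at -0.22, and the 3 probe sets of the calcium pump gene Atp2b1 lay between -0.25 and 0.13.

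The promoter of S100g is shown because the gene is a textbook target of the vitamin D receptor, which binds paired short sequences. Its 250 bases before the transcription start (RefSeq, build GRCm38.p6, chrX:162964600-162964849, minus strand), with matches to AGGTCA and GGTTCA on either strand in capitals, read:
S100g: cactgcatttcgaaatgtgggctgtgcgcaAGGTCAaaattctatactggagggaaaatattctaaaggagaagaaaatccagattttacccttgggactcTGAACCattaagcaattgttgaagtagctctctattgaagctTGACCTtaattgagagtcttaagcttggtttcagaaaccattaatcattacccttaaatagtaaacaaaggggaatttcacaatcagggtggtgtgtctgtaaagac
AGGTCA or its reverse complement lies 220 and 107 bases before the start, and GGTTCA, as its reverse complement, 149 bases before it. These matches lie far apart, so the capitals mark single short sequences and no close pair. Of 27025 promoters, 13.8% hold AGGTCA and 8.87% GGTTCA in the same window. Of 15 genes of the calcium list with a promoter sequence, 4 hold AGGTCA (S100g, Trpv6, Klk1 and Cldn14) and 1 holds GGTTCA. A match describes the letters and does not show binding.

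Several genes of the inner medulla and of urine concentration were lower. The collecting duct draws water out through aquaporins under vasopressin, and urea transporters load the inner medulla with urea. Slc14a2, the collecting duct urea transporter, went from 569 to 223 (-1.26), and Aqp2, the vasopressin-regulated water channel, from 2531 to 1445.5 (-0.80). In diabetic mice Slc14a2 went from 499.6 to 422 and Aqp2 from 3129 to 3583, so the nondiabetic uninephrectomy array had the lowest signal of the 4 for both genes. Fxyd4, a regulator of the sodium pump in the collecting duct, was at -0.53 and Slc14a1, the urea transporter of descending vasa recta and red cells, at -0.50. Of 12 expressed osmolyte and urea genes 2 were at least 1.5-fold lower and 0 higher (median -0.22, diabetic median -0.26), among them the heat shock gene Hspa1a (1414 and 731, -0.93). The related Hspa1b, whose sequence is nearly that of Hspa1a, was lower in 3 of 3 probe sets (-0.73 to -0.49), and Slc6a6, the taurine transporter, was the 1 member above 0 (0.48). Of 13 expressed genes of an inner medulla list, written after the values were seen, 4 were at least 1.5-fold lower and 0 higher (median -0.25, diabetic median 0.09). Over all genes, 2.82% were lower and 3.85% higher at 1.5-fold. The share of medulla in the frozen tissue was not measured, and its part in these values was not tested.

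The collecting duct list held genes that differed in both directions. Of 22 expressed members 1 was at least 1.5-fold higher and 3 lower, against 3.85% and 2.82% of all genes. The median of 0.04 turned negative with median centring. The members are given by cell type, a grouping made after their values were seen. The principal cell genes Aqp2, Aqp4 and Fxyd4 were lower, and Avpr2, the vasopressin receptor, was at -0.18. The probe sets of Aqp3 differed in sign (-0.17, -0.41 and 0.13). The sodium channel subunits Scnn1a, Scnn1b and Scnn1g were at -0.02, 0.47 and 0.06. Expressed members not grouped here were Kcne1 (0.37), Car2 (0.19), Sgk1 (0.18), Hsd11b2 (-0.135), Nr3c2 (-0.34) and Slc14a2 (-1.26). Of the genes of intercalated cells, which secrete acid or base, Rhbg, an ammonia transporter, went from 582 to 963 (0.70), Slc26a4, the chloride-bicarbonate exchanger pendrin, from 2485 to 3309 (0.41), and Tmem213, Foxi1, Rhcg and Atp6v1b1 were at 0.28, 0.24, 0.23 and 0.19. Slc4a1, the anion exchanger of acid-secreting cells, was at -0.34 and the proton pump subunit gene Atp6v0a4 at 0.02. In the diabetic pair Rhbg, Slc26a4, Tmem213, Foxi1, Rhcg and Atp6v1b1 were all below 0 (-0.67 to -0.21). The spike-in probe sets shifted in the same directions, with medians of 0.30 in the nondiabetic and -0.41 in the diabetic pair. The part of array scale in these values was not tested.

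**Figure D4:**
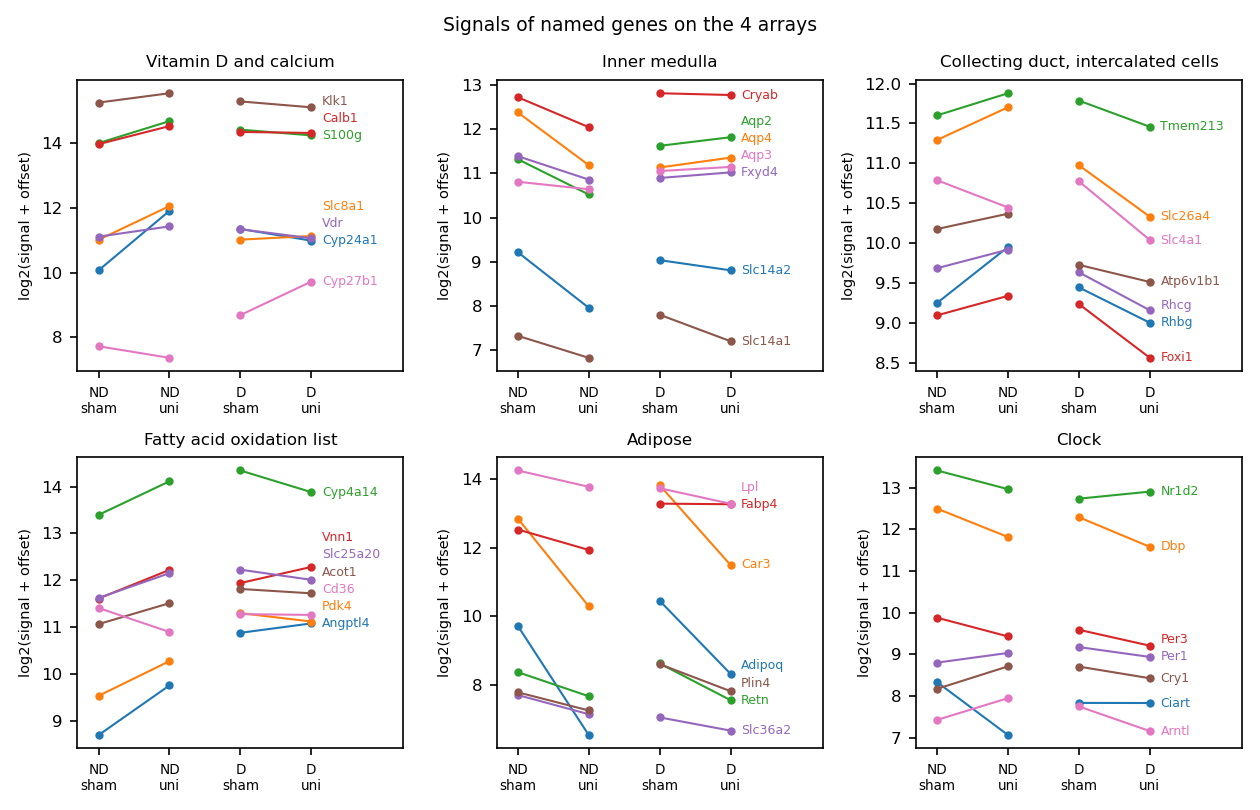
Signals of named genes, as log2(signal + 26.4) of the brightest probe set, on the arrays of nondiabetic (ND) and diabetic (D) sham and uninephrectomised (uni) mice; lines join the 2 arrays of a pair, 1 array per group. In the nondiabetic pair Cyp24a1, Calb1, Rhbg and Angptl4 are higher and Aqp4, Aqp2 and Slc14a2 lower after uninephrectomy, and Adipoq and Car3 are lower in both pairs.

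Clock genes differed in both directions. In the daily cycle, ARNTL with CLOCK switches on the Per and Cry repressors and output genes such as Dbp and Ciart through E-box sequences, so Arntl and its targets peak at different hours. Ciart, a repressor of the clock, went from 295 to 107 (-1.27), and Dbp, an output transcription factor, from 5736.5 to 3571 and from 1984 to 1144 (-0.68 and -0.78). Nr1d2, a repressor of Arntl, was lower in both probe sets (-0.45 and -1.34), while Arntl itself went from 146 to 220 (0.52, second probe set 0.60) and Cry1 from 262 to 392 (0.54). The list of 20 expressed genes had 0 members at least 1.5-fold higher and 2 lower, against 3.85% and 2.82% of all genes. Its median of 0.09 turned negative with median centring. In diabetic mice Dbp was lower too (-0.71 and -0.56), Ciart stood at 201.6 and 201.2, and Arntl went from 188.5 to 116. The hour at which mice were killed is not given in the labels used here, and its part in these values was not tested.

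The promoter of Ciart, the clock gene with the largest difference, is printed for its E-boxes. Its 250 bases before the start (RefSeq, build GRCm38.p6, chr3:95882229-95882478, minus strand), with each CACGTG in capitals, read:
Ciart: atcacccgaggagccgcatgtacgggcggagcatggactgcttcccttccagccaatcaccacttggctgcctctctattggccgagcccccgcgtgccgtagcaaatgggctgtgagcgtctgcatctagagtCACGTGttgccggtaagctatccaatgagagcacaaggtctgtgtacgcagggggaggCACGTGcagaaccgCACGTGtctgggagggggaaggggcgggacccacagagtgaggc
The 3 E-boxes begin 116, 58 and 44 bases before the start used for this window. The RefSeq span of the gene reaches chr3:95882257, inside the window, so a start farther upstream would shorten these distances. CACGTG, which reads the same on both strands, is found in 6.05% of 27025 promoters in this window, and 3 or more copies in 18 of them (0.0666%). Of 19 clock genes with a promoter sequence 6 hold it: Per1, Cry1, Tef, Bhlhe41, Ciart and Fkbp5. Of these, Ciart was lower, Per1 (0.23), Cry1 and Fkbp5 (0.43) were above 0, Tef was at -0.02 and Bhlhe41 lay under the filter, so members with the sequence differed in both directions.

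The fat cell genes Adipoq and Car3 were lower in both pairs. Kidney samples can carry fat from the renal sinus and capsule. Adipoq, the fat cell hormone adiponectin, went from 817 to 66.2 in nondiabetic and from 1380 to 293.5 in diabetic mice. Car3, carbonic anhydrase of fat and muscle, went from 7398 to 1229 and from 1032 to 218 in its 2 brighter probe sets. Its dimmest probe set was at 0.12. Of 10 expressed fat markers, out of 16 measured, 4 were at least 1.5-fold lower and 0 higher, against 2.82% and 3.85% of all genes. Their median was -0.55, and -0.69 in diabetic mice. Their summed signal was 39580 in sham and 24487 in uninephrectomised mice, against 46095 and 27130 in diabetic mice. Fabp4 was lower in 4 of 4 probe sets (-0.60 to -0.14) in nondiabetic mice, but its probe sets lay between -0.16 and 0.56 in diabetic mice. Lpl was lower in 2 of 2 (-0.70 and -0.48), and both genes are also made by other kidney cells. The brown fat markers Cidea and Ucp1, named after their values were seen, had 4-array means under the filter. They went from 254 to 26.5 and from 69.1 to 6.8. Thrsp, Cd36 and Lpl are also abundant in fat, and the part of fat in their values was not tested.

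Genes of cell growth and division had no common direction in nondiabetic kidneys. Of 17 expressed cell cycle genes, 3 stood 1.5-fold or more above sham and 0 below, against 3.85% and 2.82% of all genes. Their median of 0.05 turned negative with median centring and was 0.83 in the diabetic pair. Uhrf1, which copies DNA methylation at replication, went from 48.1 to 129 (1.06), the proliferation marker Mki67 from 69.4 to 148 (0.86), and Ccnb2, a mitotic cyclin, from 66.3 to 115.5 (0.61), all with sham signals under the filter. These 3 passed the filter only with their diabetic signals, so the count of 3 and 0 depends on the filter. Of the members that it left out, Cdk1, Birc5, Ccne1 and Aurka were at -1.19, -1.36, -1.02 and -0.43. Tyms and Bub1, also left out, were at 0.06 and 0.17. The replication genes Rrm1 (-0.55 and -0.50) and Mcm3 were lower in both probe sets, so the members did not share a direction. The brighter probe set of Mcm3 likewise passed the filter only with its diabetic signals. Among 21 growth control genes, Myc was higher (129 and 246, 0.81), the cell cycle inhibitor genes Cdkn1b (-0.49) and Cdkn1c (-0.36) were below 0, and the probe sets of Cdkn1a differed in sign. In the list of growth factors, Igf2 went from 3521 to 1982 in nondiabetic (-0.82) and from 7192 to 3792 in diabetic mice (-0.92), while Igf1 was below 0 in 3 of 4 probe sets. The 15 ribosomal protein and 18 ribosome biogenesis genes had 0 members past 1.5-fold in either direction and medians of 0.06 and -0.08, both of which changed sign under alternatives. Rps27, a ribosomal protein gene not on the list, was at 1.95, from signals of 111 and 506. The dimmest of the 15 listed ribosomal protein genes, Rps6, had signals of 1252 and 1384.

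Injury genes differed in both directions. Of 16 expressed members 2 were at least 1.5-fold higher and 3 lower, against 3.85% and 2.82% of all genes. The median of 0.07 turned negative with median centring and was 1.28 in the diabetic pair. Havcr1 (KIM-1), a membrane protein of injured proximal tubules, went from 221 to 98.8 (-0.98) in nondiabetic and from 359 to 2552 in diabetic mice. Lcn2, the secreted injury marker NGAL, was dim on both nondiabetic arrays (41.7 and 5.7) and went from 224.5 to 3374 in diabetic mice. Clu, a secreted chaperone, was higher in 4 of 4 probe sets (0.54 to 0.77), from 7857 to 11462 in the brightest, and Fgb, the fibrinogen beta chain, went from 99.8 to 296 (1.35). Cd44, a hyaluronan receptor, was dim on both nondiabetic arrays too (45.9 and 99.8). Lcn2 and Cd44, counted among these 16, passed the filter only through their diabetic signals, so their nondiabetic differences lie between signals under the filter. Clu and Fgb were also higher in diabetic mice (0.95 and 0.97).

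Proximal tubule, mitochondrial and detoxification genes were shifted by small amounts. Of 27 oxidative phosphorylation genes 25 were above 0 with a median of 0.14, against -0.21 in diabetic mice, and 0 passed 1.5-fold. Antioxidant genes and NRF2 targets had a median of 0.25 over 20 genes, 16 of them above 0, led by the glutathione transferases Gsta4 (0.50) and Gsta3 (0.41) and by Nqo1 (0.42), with 0 past 1.5-fold. Of 18 cytochrome P450 genes, 3 stood 1.5-fold or more above sham and 0 below (median 0.19), against 3.85% and 2.82% of all genes. The 3 were Cyp24a1, Cyp4a14 and the omega-hydroxylase gene Cyp4a12a (170 and 368, 1.01). Of 22 proximal tubule genes, 0 stood 1.5-fold or more above sham and 1 below (median 0.14), the organic anion transporter gene Slc22a7, which went from 8337 to 4689 (-0.83). The median of the spike-in probe sets on the same array (0.30) was above each of these medians, and with median centring the medians became 0.01, 0.13, 0.06 and 0.01. The part of array scale in these small shifts was not tested.

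Matrix, immune and vascular lists held few genes past 1.5-fold. Over all genes, 3.85% were higher and 2.82% lower at this threshold. Of 34 expressed matrix genes 0 were higher and 1 lower, the membrane collagenase gene Mmp14 (162 and 73.5, -0.91), with a median of -0.04 against 0.44 in diabetic mice. Of 16 macrophage genes 1 was higher, Adgre1, the surface marker F4/80 (204 and 348.5, 0.70), with a median of 0.02 that turned negative under alternatives, against 1.23 in diabetic mice. Of 15 interferon response genes 2 were lower, the transcription factor gene Irf7 (140 and 34.9, -1.44) and Ifi27l2a (423 and 268, -0.61). Irf7 passed the filter only with its diabetic signals. The medians of the interferon, complement and podocyte lists changed sign under alternatives. In the complement and coagulation list, the proteases C1ra (351 and 155, -1.06) and C1s1 (473 and 298, -0.63), which start the classical pathway, were lower with Plau, and Fgb was higher. The 14 podocyte genes had 0 members past 1.5-fold, and of 15 endothelial genes 1 was higher, Ehd3, with probe sets at 0.60 and 0.05. Corin, the protease that activates natriuretic peptides, was lower in both pairs (329 and 150 in nondiabetic mice, -1.01, and 119 and 49.7 in diabetic mice, -0.93).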

How the data were processed

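The authors deposited linear array intensity values for 45101 probe sets on 4 Affymetrix arrays, made from 100 ng of pooled RNA labelled with a 3' IVT kit, per the labels' protocols. The software that made these values was not given in the sources used here. After trimming 2% at each end, every array had a mean intensity of 500.003, so the deposited values were taken as scaled and were not normalised again. Of 45037 probe sets that are not controls, 34945 had 1 gene symbol, 932 several and 9160 none listed, and 34741 were matched to RefSeq by gene number. The offset, filter and fold thresholds are given with the results. No test was run, as each group has 1 array, and the number of arrays limits the precision. The script was tested on simulated data.

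Named genes were the 15 highest and 15 lowest genes by the smallest difference among probe sets of one sign, the 10 highest and 10 lowest by the brightest probe set, and up to 4 members of each of 37 gene lists with the largest difference. Other list members named beside them were chosen after their values were seen, and so were 2 added lists (vitamin D and calcium, inner medulla). The comparison, members and lists were chosen with earlier results of these data known. Alternatives were quantile normalisation, median centring, offsets of 1 and 72.5, no filter, a filter at the 75th percentile, leaving out probe sets ending in _x_at or _s_at, averaging over probe sets, and 2-fold in every probe set. Python 3.11.15, pandas 2.3.3, numpy 2.4.6 and matplotlib 3.10.9 were used.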

Additional observations from a re-analysis of the deposited data

Results flagged for a closer look

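For 8 of the named genes, uninephrectomy went with at least 1.5-fold differences of opposite sign in nondiabetic and diabetic mice. The difference between the pairs, diabetic minus nondiabetic, was not tested, as each pair has 1 array per group. It was 4.85 for Lcn2, whose nondiabetic signals (41.7 and 5.7) both lay under the filter and whose nondiabetic difference ran from -2.67 to -0.55 over the alternatives, under 1.5-fold at one end. It was 3.72 for Havcr1, 2.31 for Tnfrsf12a and 1.33 for Chrdl1. It was 1.66 for Mmp14 and 2.49 for Sec24b, a coat protein gene of secretory vesicles. It was -3.80 for Plxnb3, a semaphorin receptor gene, and -3.46 for Lce1h. In Chrdl1 the second probe set did not repeat the opposite sign, with -0.75 in nondiabetic and -0.10 in diabetic mice.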

How the results depend on the processing

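No paired analysis was possible because each group has 1 array and the labels give no replicate numbers. The counts at least 2-fold higher and lower (76 and 58) were 44 and 89 with median centring, 33 and 30 with the offset at the 40th percentile, 847 and 395 without the filter, and 12 and 12 with the filter at the 75th percentile; with an offset of 1 the higher count was 122. The counts at least 1.5-fold higher and lower in every probe set (13 and 15) were 5 and 37 with median centring, 134 and 40 without the filter, and 1 and 1 at 2-fold. The higher count alone was 6 with the offset at the 40th percentile, 5 with the filter at the 75th percentile, 7 without _x_at and _s_at probe sets, and 2 among genes above the 75th percentile of expressed signals, an alternative chosen after seeing the data. The pooled SD of probe sets within a gene was 0.487 without the filter. Of the 28 genes repeated in every probe set 17 had the same sign in diabetic mice, and with the filter at the 75th percentile, which calls 15 genes (among them 4 of the 13 higher and 8 of the 15 lower ones), 8 did. The causes were not tested, apart from the smaller number of genes. Of 177 named genes 91 differed by at least 1.5-fold, and all 91 kept their sign under quantile normalisation, median centring and both other offsets. This is no check of these genes, as the outcome was almost fixed in advance. An offset cannot change the sign of a difference, and median centring shifted the median by only -0.13. Dim signals limit these data: most genes past 2-fold lay under the filter signal on one array.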

Other observations

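Single members of other lists stood apart in nondiabetic mice. G6pc, the last enzyme of gluconeogenesis, went from 15614 to 23023 after uninephrectomy (0.56) and from 18925 to 17191 in diabetic mice. Ndrg1, a hypoxia-responsive gene abundant in kidney, was higher in 5 of 5 probe sets (0.30 to 0.57), and Car9, a hypoxia-induced carbonic anhydrase, went from 90.5 to 165 (0.71), although the hypoxia list as a whole had a median of -0.05 over 14 genes that changed sign under alternatives. Slc7a12, an amino acid transporter gene, went from 15691 to 10046 (-0.64) against 0.15 in diabetic mice. Igfbp4, which binds insulin-like growth factors, was above 0 in 6 of 6 probe sets (0.08 to 0.40). The urothelial genes Upk2 and Upk1b were lower by 0.68 each in the brightest probe set, and another probe set of Upk1b stood at 0.52.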
